A study of Mus musculus with 8 samples.

Results

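Myh6, Myh7, Myl7, Myl4, Actc1, Tnnt2, Tnni3, Nppa, Sln and Ryr2 are genes of the contractile apparatus, the calcium store and the hormone of heart muscle cells, and they were followed through 8 lung libraries. They are 10 of the 23238 gene symbols in the count tables. They were selected on their CPM in these same libraries, chiefly a high Myh6 (CPM are counts per 1000000 counts of the library total). Their levels and the differences between the groups are therefore described without a test. Myh6 was high in 3 libraries, Myh7 was high in the same 3 and in 1 control library without Myh6, the others had counts in other combinations of libraries or near 0, and Nppa and Sln were at 0. There were 4 libraries of Cdh5-CreERT2;Sox17fl/fl;RPL22tm1.1Psam mice, in which Sox17, a transcription factor gene of arterial endothelium, was deleted and which were then kept in hypoxia. Another 4 libraries were controls, of Cdh5-CreERT2; RPL22tm1.1Psam mice in room air. All mice were C57BL/6J, both groups carried the tamoxifen-inducible recombinase and the RiboTag allele, and both were given tamoxifen at 8 weeks of age, as 5 daily doses of 2 mg. The 3 weeks of hypoxia or room air began at 10 weeks. Cdh5-CreERT2 acts in endothelial cells, where the RiboTag allele then places a haemagglutinin tag on ribosomes, and the tagged ribosomes were pulled down from lung. Genotype and oxygen differed together, so their effects cannot be told apart. The number of animals behind a library is not stated in the labels, and the spread that p-values measure is that between libraries, some of which may be technical.

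Heart muscle cells contract through thick filaments of myosin sliding along thin filaments of actin, with calcium release and re-uptake setting the timing. In the mouse, a sleeve of cardiac muscle runs along the pulmonary veins into the lung, so heart muscle transcripts can occur in lung tissue. Myosin heavy chains form a family in which the heart isoforms MYH6 and MYH7 are close relatives, and nonmuscle isoforms occur in most cells. In bulk samples, fewer cells of a type and less RNA per cell cannot be told apart.

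The libraries held 7000313 to 12913304 counts in Sox17-deleted hypoxia and 10567561 to 11884614 in controls, so that 3 counts correspond to between 0.232 and 0.429 CPM. Sox17 had 473, 31, 6 and 41 counts in the Sox17-deleted hypoxic libraries 1 to 4, against 3072, 2591, 2442 and 2442 in the control libraries 1 to 4. The groups did not overlap, and the edgeR adjusted p over all genes was 0.346. All 14 endothelial markers, among them Ramp2 at 3215 ± 806 CPM in Sox17-deleted hypoxia and 4384 ± 320 CPM in controls (SD, n = 4 each), had more than 3 counts in every library. The Sox17-deleted hypoxic libraries had fewer genes with 10 or more counts, 6075 to 7242, against 8319 to 9303 in controls. Among the 3355 genes with a mean of 5 to 20 CPM, 61.2% of values in Sox17-deleted hypoxia and 37.6% in controls were at 3 counts or fewer, so a gene of this level was often present in some libraries and absent from others. Such values were rarer at higher means. In Sox17-deleted hypoxia and controls they made up 29.15% and 8.94% at 20 to 50 CPM, and 7.955% and 1.12% at 50 to 100 CPM. The part of this uneven detection in the values below was not tested.

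Myh6 and Myh7 lie next to each other on chromosome 14 (GRCm38, the assembly also called mm10), Myh6 at 54941921 to 54966927 and Myh7 at 54970684 to 54994626, both on the minus strand. Their coding sequences were 91.7% identical over 5802 aligned bases of GENCODE M21, and the longest identical run was 245 bases. That run is shown to mark what the counts of these rows may share. Capitals mark the identical run, lower case the 15 bases on either side, and both are coding sequence read 5′ to 3′ on the minus strand.
Myh6, chr14:54948312-54948740: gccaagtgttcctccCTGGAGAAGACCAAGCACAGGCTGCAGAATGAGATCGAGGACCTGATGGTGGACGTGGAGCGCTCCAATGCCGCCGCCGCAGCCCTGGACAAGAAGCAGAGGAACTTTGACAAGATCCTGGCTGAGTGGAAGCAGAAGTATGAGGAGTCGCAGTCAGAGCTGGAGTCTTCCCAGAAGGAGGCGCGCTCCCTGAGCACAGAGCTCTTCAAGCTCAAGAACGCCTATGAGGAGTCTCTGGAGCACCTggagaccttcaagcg
Myh7, chr14:54974932-54975362: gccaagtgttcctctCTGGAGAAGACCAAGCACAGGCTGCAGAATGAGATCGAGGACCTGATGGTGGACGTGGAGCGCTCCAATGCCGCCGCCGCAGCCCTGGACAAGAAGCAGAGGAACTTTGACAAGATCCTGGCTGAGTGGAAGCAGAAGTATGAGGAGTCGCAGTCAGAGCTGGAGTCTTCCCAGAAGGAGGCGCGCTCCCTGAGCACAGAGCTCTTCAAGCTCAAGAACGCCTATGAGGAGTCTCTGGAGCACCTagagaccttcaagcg
Both spans cross an intron, so each is longer in the genome than the sequence printed.

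The nonmuscle heavy chain gene Myh14 resembled Myh6 less. Its coding sequence was 60.1% identical to that of Myh6, and the longest identical run was 28 bases, in capitals below with 15 bases on either side.
Myh6, chr14:54959861-54959918: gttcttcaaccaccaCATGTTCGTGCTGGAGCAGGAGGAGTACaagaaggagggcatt
Myh14, chr7:44639006-44639063: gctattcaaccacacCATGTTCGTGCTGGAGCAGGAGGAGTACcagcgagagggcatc
Of the 6064 windows of 50 bases in the Myh6 transcript, 1373 also occurred in a Myh7 transcript, and 0 occurred in Myh9, Myh10, Myh11 or Myh14. The libraries were made from the 3′ ends of transcripts. In the last 500 bases, 42.8% of the Myh6 windows and 51.2% of the Myh7 windows occurred in a transcript of another gene. For Myl7, Myl4, Actc1, Tnnt2, Tnni3 and Sln, 0 windows did, over the whole transcript. For Nppa, 53.4% of all windows and 74.7% of those in the last 500 bases also occurred in Gm13054, an overlapping gene on the other strand that has no row in the count tables. Some Myh6 windows also occurred in Mhrt, described below, and in Gm49130, a gene on the other strand without a row in the count tables. Gm49130 overlaps 932 bases at the 3′ end of Myh6. Read length and the handling of reads with several matches are not stated. The counts of Myh6 and Myh7 are therefore uncertain with respect to each other. The sharing with Mhrt and Gm49130 adds to the uncertainty for Myh6, and the count of Nppa is uncertain too.

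Myh6, the gene of the fast heavy chain that dominates adult mouse heart muscle, had 0, 1808, 351 and 3429 counts in the Sox17-deleted hypoxic libraries 1 to 4, against 31, 132, 0 and 22 counts in the control libraries 1 to 4. In CPM these were 0, 191, 50.1 and 307 in Sox17-deleted hypoxia, against 2.93, 11.9, 0 and 1.85 in controls. Libraries 2, 3 and 4 of Sox17-deleted hypoxia stood above every control library, library 1 was at 0, and the groups overlapped. Library 1 kept the most Sox17 counts of its group. In libraries 2, 3 and 4, however, the order of Myh6 was the same as that of Sox17 (31, 6 and 41 counts), and a link was not tested. The mean was 137 ± 139 CPM in Sox17-deleted hypoxia and 4.18 ± 5.31 CPM in controls (SD, n = 4 each), a ratio of 32.8, with an edgeR log2 fold change of 4.97 (SE 1.91). Myh6 made up 69.5% of the summed CPM of the 10 genes in Sox17-deleted hypoxia and 11.2% in controls.

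Myh7, the gene of the slow heavy chain that is more prominent in the embryonic mouse ventricle, had 0, 432, 328 and 350 counts in the Sox17-deleted hypoxic libraries, against 5, 0, 420 and 5 counts in the controls. The means were 31.0 ± 21.8 CPM in Sox17-deleted hypoxia and 9.24 ± 17.9 CPM in controls (SD, n = 4 each), with an edgeR log2 fold change of 1.83 (SE 2.42). Myh7 was thus high in the libraries where Myh6 was high, but it was also high in control library 3, where Myh6 had 0 counts.

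The 3′ part of Myh7 is overlapped on the other strand by Mhrt, a long noncoding RNA gene at 54968678 to 54974349, and 463 of its 828 exon bases lie inside Myh7 exons. Mhrt had 0, 269, 328 and 348 counts in the Sox17-deleted hypoxic libraries and 5, 0, 0 and 5 counts in the controls. Its count was the same as that of Myh7 in 5 of the 8 libraries, including 2 where both were at 0, and 2 counts lower in another. In control library 3, Myh7 had 420 counts and Mhrt 0. How strand was treated in counting is not stated, so reads of Myh7 and of Mhrt cannot be told apart where the genes overlap.

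**Figure D1:**
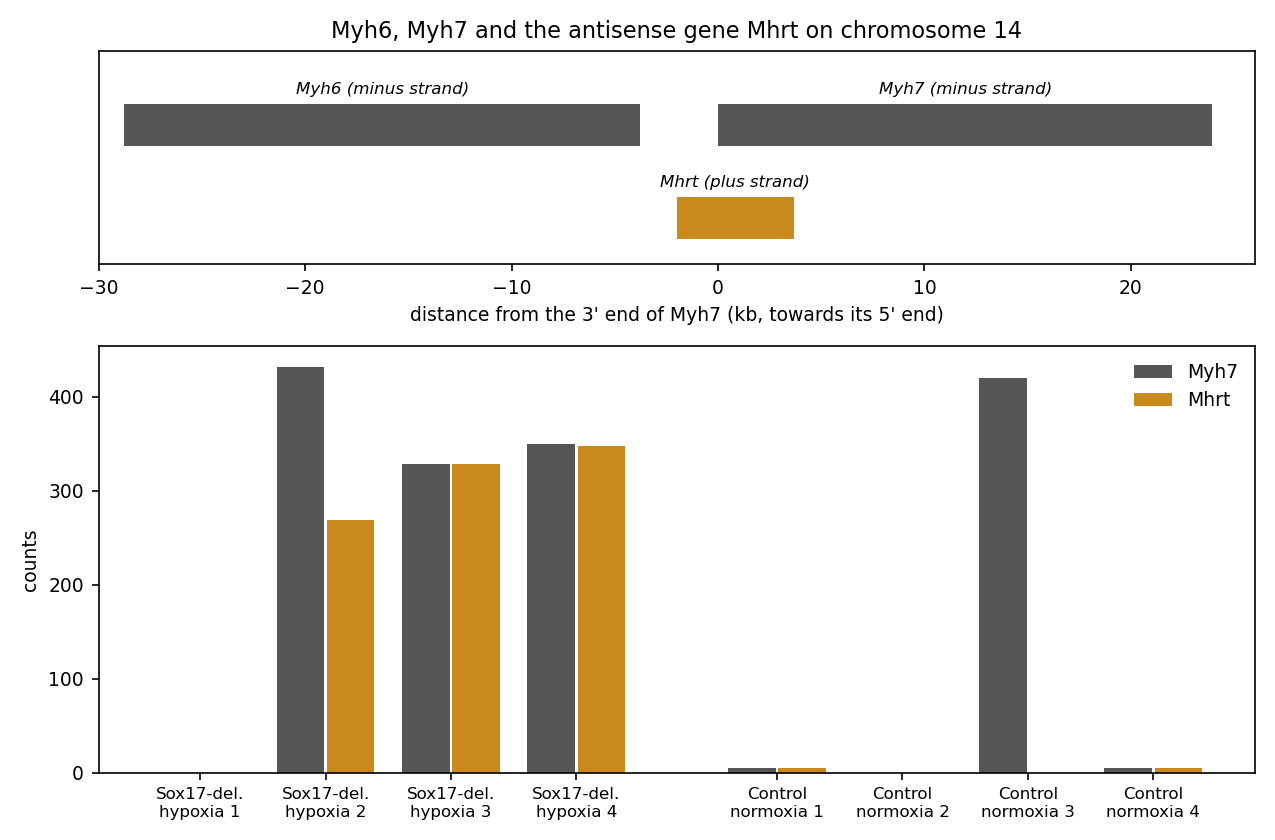
The upper panel shows the extents of Myh6, Myh7 and Mhrt by distance in kb from the 3′ end of Myh7, and the lower panel shows the counts of Myh7 (grey) and Mhrt (ochre) in each of the 8 libraries. The paired bars are equal or nearly so except in Sox17-deleted hypoxic library 2 (432 and 269 counts) and control library 3 (420 and 0 counts).

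The light chains did not share the Myh6 pattern. Myl7, the atrial regulatory light chain gene on chromosome 11 (5896637 to 5898782, minus strand), was counted 23 times in library 2 of Sox17-deleted hypoxia, 45 times in control library 4, and not at all in the other 6. Myl4, the atrial essential light chain gene on the same chromosome (104550663 to 104595753, plus strand), had 209, 0, 0 and 99 counts in the Sox17-deleted hypoxic libraries, against 228, 0, 140 and 0 counts in the controls, with means of 6.26 ± 7.83 CPM in Sox17-deleted hypoxia and 8.40 ± 10.5 CPM in controls (SD, n = 4 each). Myl4 had 0 counts in Sox17-deleted hypoxic libraries 2 and 3, where Myh6 had 1808 and 351, and its highest count in either group stood in a library with 31 counts of Myh6 or fewer.

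Among the thin filament genes, Actc1, which encodes the main actin of heart muscle and lies on chromosome 2 (114047282 to 114053548, minus strand), had 304, 0, 0 and 0 counts in Sox17-deleted hypoxia, against 0, 375, 174 and 81 counts in controls. Within Sox17-deleted hypoxia, Actc1 was present in the library that lacked Myh6 and at 0 in the other 3, the reverse of Myh6. In controls, library 2 had the highest count of both, 375 of Actc1 and 132 of Myh6. Tnnt2, the cardiac troponin T gene on chromosome 1 (135836354 to 135852260, plus strand), was counted 254 times in library 4 of Sox17-deleted hypoxia and 20 times in control library 2, with 0 counts in the remaining 6. Tnni3, the cardiac troponin I gene on chromosome 7 (4518305 to 4524229, minus strand), was counted 302 times in library 3 of Sox17-deleted hypoxia, with 0 counts in the remaining 7. Dnaaf3, the neighbour that overlaps Tnni3 on the same strand, had 0 counts in every library.

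The calcium-handling and hormone genes were near or at 0. Ryr2, the gene of the calcium release channel of heart muscle on chromosome 13 (11553102 to 12106945, minus strand), had 0, 0, 1 and 0 counts in Sox17-deleted hypoxia and 0, 1, 1 and 6 counts in controls. Sln, which encodes sarcolipin, a small inhibitor of the calcium pump in atrial muscle, and Nppa, the gene of the atrial natriuretic peptide, had 0 counts in all 8 libraries. Sln lies on chromosome 9 (53850164 to 53854560) and Nppa on chromosome 4 (148000722 to 148002079), both on the plus strand. Over the 85680283 counts of all libraries together, 0 counts allow a Sln level of up to 0.0350 CPM, a limit that covers counting error alone. For Nppa no limit is given, because of the sequence it shares with Gm13054. The atrial and pulmonary vein muscle of the mouse is a known site of Nppa, Sln and Myl7. Whether such muscle contributed to any of these counts was not tested.

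**Figure D2:**
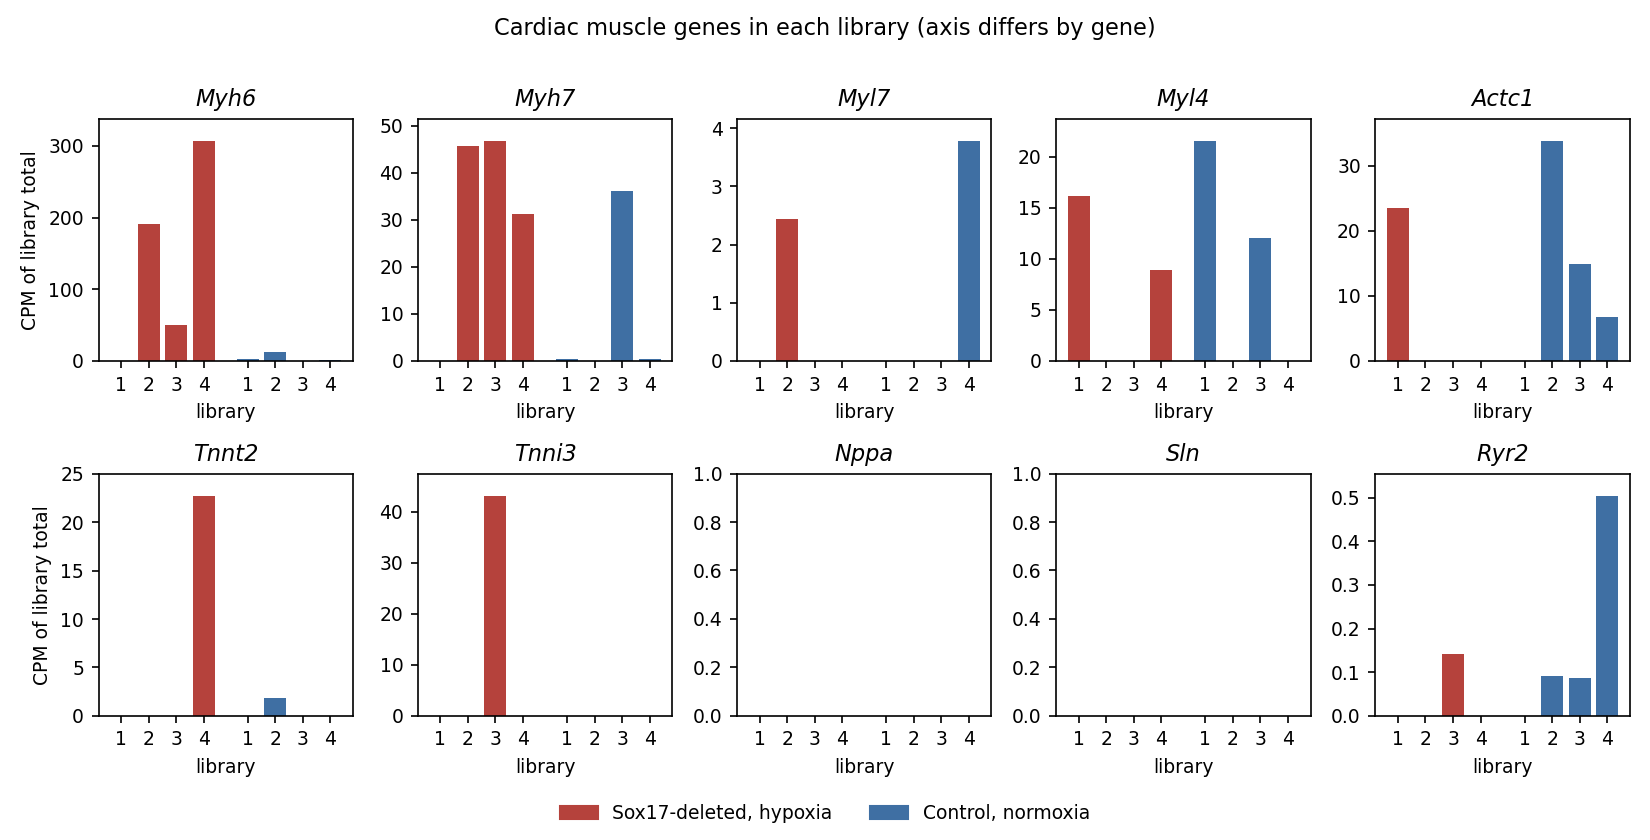
Each panel shows the CPM of 1 of the 10 genes in the 4 Sox17-deleted hypoxic libraries (red) and the 4 control libraries (blue), with an axis of its own. Myh6 and Myh7 are high together in Sox17-deleted hypoxic libraries 2, 3 and 4, the other genes are present in other combinations of libraries, and Nppa and Sln are at 0.

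Of the 80 values of the 10 genes over 8 libraries, 51 were 0, 3 were between 1 and 3 counts and 26 were above 3 counts, 12 in Sox17-deleted hypoxia and 14 in controls. Myh7 was the only other gene of the 10 with more than 3 counts in each of Sox17-deleted hypoxic libraries 2, 3 and 4. Outside Myh6 and Myh7, the 8 genes summed to 39.7, 2.43, 43.3 and 31.6 CPM in Sox17-deleted hypoxia, against 21.6, 35.8, 27.1 and 11.1 CPM in controls. The means of that sum were 29.3 ± 18.5 CPM in Sox17-deleted hypoxia and 23.9 ± 10.3 CPM in controls (SD, n = 4 each), and the groups overlapped. Of the 10 genes, 4 passed the expression filter of edgeR (Myh6, Myh7, Myl4 and Actc1), and 0 of the 10 had groups without overlap, beside 1.63% higher and 4.96% lower of the 8282 genes tested. Because the same contrast chose the genes, nothing is read from that count.

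Over the 8 libraries, the Pearson correlation of log2(CPM + 1) with Myh6 was 0.59 for Myh7, 0.58 for Tnnt2, 0.26 for Tnni3, 0.11 for Myl7, −0.27 for Ryr2, −0.41 for Myl4 and −0.69 for Actc1. These are descriptions of 8 points that share the difference between the groups and the fewer genes detected in Sox17-deleted hypoxia, and the value for Tnnt2 and for Tnni3 rests on 1 or 2 libraries. By the same measure, Mhrt stood at 0.89, but its reads cannot be told apart from those of Myh7 where the genes overlap. The nonmuscle heavy chain genes Myh14, Myh9 and Myh10 stood at 0.89, 0.84 and 0.82. The genes most like Myh6 among the 8118 ranked were Rpl6, a large ribosomal subunit protein gene, at 0.95, Ctnnbip1, an inhibitor of beta-catenin, at 0.94, the malic enzyme gene Me1 at 0.94, the fibronectin gene Fn1 at 0.94, and Nudc at 0.93. None of these 5 is a muscle gene. The ranking left out the 10 genes themselves and every gene with a mean under 8 CPM over the 8 libraries. That took out many muscle genes beforehand, so nothing is read from their absence. Rpl6 had 253 ± 60.1 CPM in Sox17-deleted hypoxia and 219 ± 18.5 CPM in controls, while Me1 had 26.3 ± 25.6 CPM in Sox17-deleted hypoxia and 0.0925 ± 0.107 CPM in controls (SD, n = 4 each). Ctnnbip1 had 168 ± 44.0 CPM in Sox17-deleted hypoxia and 104 ± 24.6 CPM in controls, Fn1 49.0 ± 38.0 CPM in Sox17-deleted hypoxia and 20.1 ± 11.8 CPM in controls, and Nudc 118 ± 44.1 CPM in Sox17-deleted hypoxia and 47.2 ± 20.5 CPM in controls.

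Within the myosin heavy chain family, the nonmuscle genes Myh9, Myh14 and Myh10 had their 3 highest values in Sox17-deleted hypoxic libraries 2, 3 and 4, as Myh6 did. Myh9, a nonmuscle heavy chain gene, had 481, 1341, 3017 and 4358 CPM in the Sox17-deleted hypoxic libraries, against 242, 378, 337 and 326 CPM in the controls, without overlap. Myh14 had 55.1, 618, 717 and 2251 CPM in Sox17-deleted hypoxia, against 45.7, 111, 55.1 and 11.4 CPM in controls. For both genes Sox17-deleted hypoxic library 1, at 0 for Myh6, was the lowest of its group, and library 4, the highest for Myh6, was the highest. Myh10, also nonmuscle, had 0.697, 254, 281 and 396 CPM in Sox17-deleted hypoxia, against 9.94, 20.9, 58.5 and 21.8 CPM in controls. Their edgeR log2 fold changes were 2.87 (SE 0.54), 4.01 (SE 0.89) and 3.11 (SE 1.12), and the edgeR adjusted p over all genes was 0.211, 0.337 and 0.594 for Myh9, Myh14 and Myh10 in turn, so none passed. DESeq2 called 2 of the 14 heavy chain genes, Myh9 and Myh14, both higher, beside 1.32% of its 9352 genes called higher. The 14 include Myh6 and Myh7, selected on this contrast, and 6 genes at 0 in all libraries. Nothing is therefore read from that count about the family. Smooth muscle Myh11 was at 195 ± 218 CPM in Sox17-deleted hypoxia and 27.0 ± 27.5 CPM in controls (SD, n = 4 each; edgeR adjusted p = 0.702).

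The other striated muscle heavy chains did not go with Myh6. Myh7b had 952, 55, 1 and 0 counts in Sox17-deleted hypoxia, against 67, 0, 104 and 86 counts in controls, highest in the Sox17-deleted hypoxic library that lacked Myh6. Myh4, a fast skeletal muscle gene, had 551 counts in the same library, 504 in control library 3 and 0 in the other 6. Myh1, Myh2, Myh3, Myh8, Myh13 and Myh15 had 0 counts in all libraries.

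**Figure D3:**
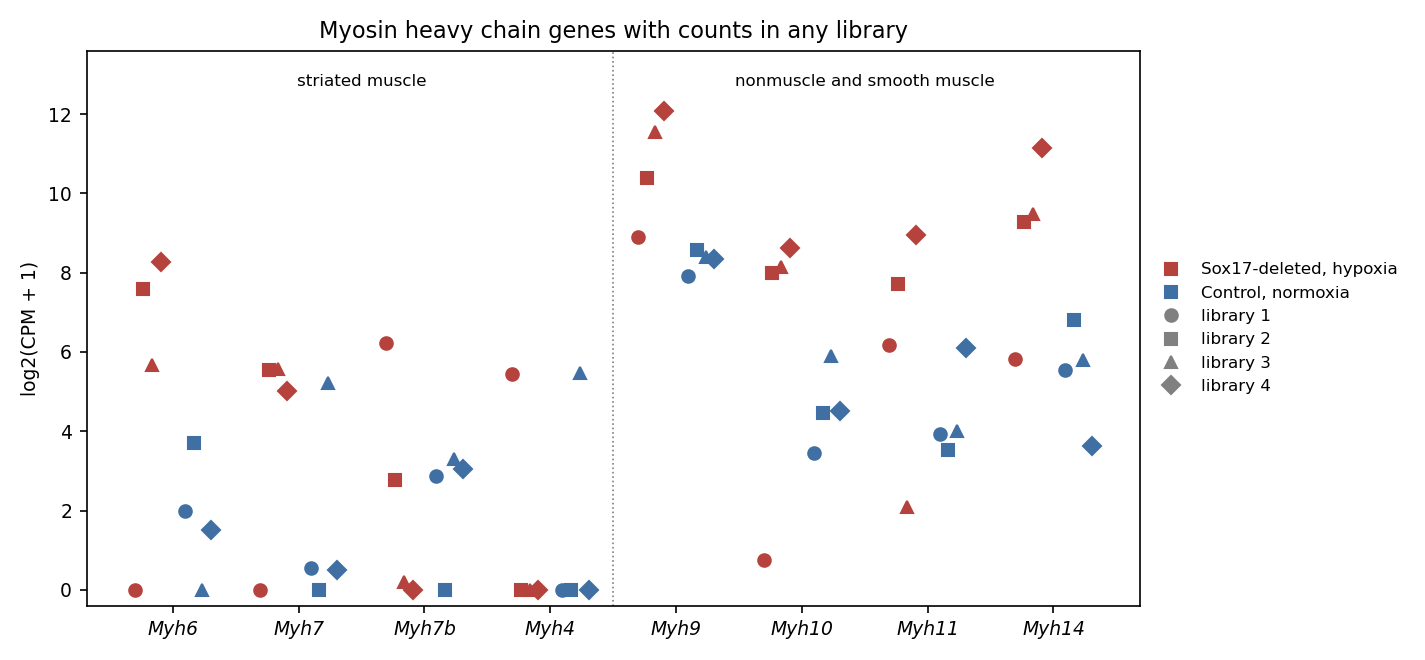
Each point is the log2(CPM + 1) of a myosin heavy chain gene in 1 library, red for Sox17-deleted hypoxia and blue for controls, with the marker shape giving the library number. The red diamonds (library 4) are highest for Myh6, Myh9, Myh10, Myh11 and Myh14, and the red circles (library 1) are low for Myh6, Myh7, Myh10 and Myh14 and highest for Myh7b.

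Relatives of the actin and light chain genes included abundant cytoplasmic forms. Actb, the main cytoplasmic actin, was at 10214.5 ± 3086 CPM in Sox17-deleted hypoxia and 6268 ± 204 CPM in controls, and Actg1 was at 965 ± 650 CPM in Sox17-deleted hypoxia and 663 ± 98.8 CPM in controls. The smooth muscle actin gene Acta2 was at 18.7 ± 12.95 CPM in Sox17-deleted hypoxia and 22.7 ± 9.92 CPM in controls (SD, n = 4 each). Among light chains, the nonmuscle genes Myl6, Myl12a and Myl12b were at 1664 ± 770, 842 ± 512 and 365 ± 193 CPM in Sox17-deleted hypoxia, against 1300 ± 211, 1529 ± 159 and 501 ± 117 CPM in controls. Smooth muscle Myl9 had 34.0 ± 24.3 CPM in Sox17-deleted hypoxia and 12.9 ± 14.97 CPM in controls, and the skeletal light chain gene Mylpf 0.0357 ± 0.0714 CPM in Sox17-deleted hypoxia and 12.4 ± 16.6 CPM in controls (SD, n = 4 each). The edgeR adjusted p was 0.83 for Actb and 1.00 for Actg1, Acta2, Myl6, Myl12a, Myl12b and Myl9.

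A further 75 genes of heart muscle were examined: sarcomere and Z disc, calcium and conduction, energy supply, and transcription factors and hormones. Of these, 34 had 3 or fewer counts in each of the 8 libraries, and 30 of the 34 had 0 in all. The 30 are 40% of the list, beside 39.45% of all 23238 symbols at 0 throughout, and the 34 are 45.3%, beside 45.8% of all symbols with 3 or fewer counts in each library, so nothing is read from these counts. At 0 throughout were the ventricular light chain gene Myl2, the cardiac myosin-binding protein gene Mybpc3, phospholamban (Pln), calsequestrin 2 (Casq2), Tcap, and the cardiac transcription factor genes Nkx2-5 and Tbx20. Another 19 had more than 3 counts in exactly 1 library. Among all 1924 genes with a mean of 1 to 5 CPM, 42.4% did too, and among the 3355 with a mean of 5 to 20 CPM, 5.22%. The 19 lie at several levels and the share over all symbols was not computed, so nothing is read from this count. Of the remaining defining markers, Myl3 had 117 counts in control library 4 and 0 elsewhere, myoglobin (Mb) 112 counts in control library 3 and 0 elsewhere, and Ckm, the muscle creatine kinase gene, 24 and 111 counts in control libraries 1 and 3 and 0 elsewhere. Actn2, the Z disc actinin gene, had 141, 0, 0 and 0 counts in Sox17-deleted hypoxia, against 0, 0, 0 and 1 counts in controls. Tnnc1 had 0, 1, 0 and 0 counts in Sox17-deleted hypoxia and 34, 190, 0 and 1 counts in controls. Ttn, the titin gene, had 0, 0, 0 and 674 counts in Sox17-deleted hypoxia, against 0, 1, 0 and 82 counts in controls.

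**Figure D4:**
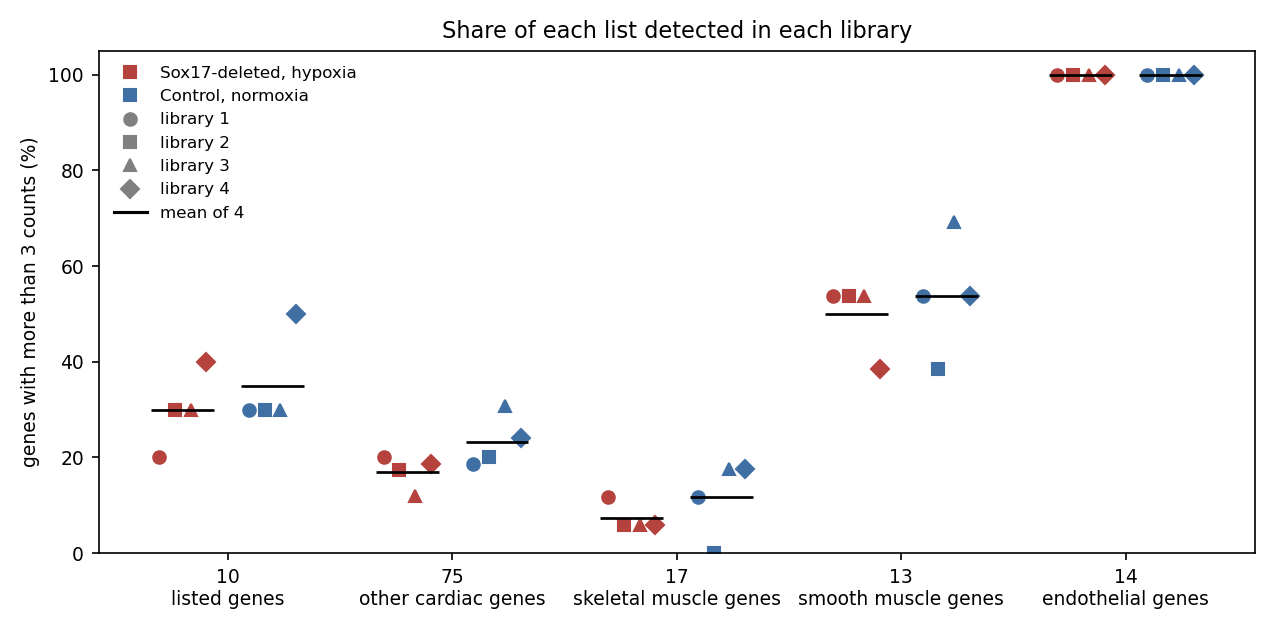
Each point is the share, in percent, of a gene list with more than 3 counts in 1 library, red for Sox17-deleted hypoxia and blue for controls, and black lines are means of 4 libraries. The 14 endothelial genes are at 100% in every library, whereas 9 to 15 of the 75 other cardiac genes were detected in Sox17-deleted hypoxic libraries and 14 to 23 in controls. Detection was lower over all genes too, with 6075 to 7242 genes at 10 or more counts in Sox17-deleted hypoxia and 8319 to 9303 in controls.

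The edgeR test could be applied to 13 of the 75 genes, and 0 passed in either direction, beside 0% of all 8282 genes tested (424 of the 8282, or 5.12%, at an unadjusted p under 0.05, and 0 of the 13). By edgeR sign, 10 were higher and 3 lower in Sox17-deleted hypoxia, beside 4110 and 4172 of the 8282 genes. The median log2 fold change was 0.35, against −0.01 for all genes tested. By the difference in mean log2(CPM + 1), Myh7b (−0.01), Cryab (−0.04), Fkbp1b (−1.20), Hspb6 (−0.22) and Gata6 (−0.22) were lower instead. The other tested genes kept their sign, and nothing is read from the split. DESeq2 called 2 of the 75, Tpm2 and Cacna1c, both lower, beside 1.32% of its 9352 genes called higher and 3.74% called lower. Tpm2, a tropomyosin gene of striated and smooth muscle, had 2, 1, 0 and 9 counts in Sox17-deleted hypoxia, against 266, 399, 1 and 128 counts in controls. Cacna1c, the calcium channel gene of heart and smooth muscle, had 0, 0, 0 and 1 counts in Sox17-deleted hypoxia and 181, 1, 184 and 278 counts in controls.

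Several of the 75 genes are also used outside heart muscle. Tpm1, a tropomyosin gene, was at 571 ± 208 CPM in Sox17-deleted hypoxia and 410 ± 58.4 CPM in controls (SD, n = 4 each). Atp2a2, which encodes the calcium pump of heart muscle and many other cells, had 869, 3561, 19 and 4 counts in Sox17-deleted hypoxia, against 2887, 3412, 530 and 3145 counts in controls. Sox17-deleted hypoxic library 4, the highest for Myh6, thus had 4 counts of Atp2a2. The chaperone gene Cryab was at 66.7 ± 68.0 CPM in Sox17-deleted hypoxia and 52.5 ± 27.0 CPM in controls. Of the transcription factor genes, Mef2c, Mef2a and Gata6 were at 196 ± 233, 104 ± 121 and 30.7 ± 35.4 CPM in Sox17-deleted hypoxia, against 135 ± 119, 188 ± 47.5 and 17.5 ± 19.9 CPM in controls (SD, n = 4 each). Each of these genes had an edgeR adjusted p of 1.00.

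Other genes of the 75 with a mean of at least 8 CPM were uneven between libraries, and Tnni1, Des and Myom1 were mostly set by 1 library. Tnni1 had 928 counts in Sox17-deleted hypoxic library 1, Des 697 counts in library 4 and Myom1 357 counts in library 3. In controls Tnni1 had at most 1 count, Des 79 counts in library 3 and Myom1 4 counts in library 3. Tbx5 had 0, 405, 0 and 774 counts in Sox17-deleted hypoxia, against 41, 0, 133 and 0 counts in controls, and Ankrd1 had 1, 750, 0 and 317 counts in Sox17-deleted hypoxia, against 0, 439, 75 and 0 counts in controls. Both were high in libraries 2 and 4 of Sox17-deleted hypoxia, where Myh6 was highest, and low in library 3. Slc8a1, the sodium-calcium exchanger gene, was at 8.95 ± 15.6 CPM in Sox17-deleted hypoxia and 15.4 ± 18.6 CPM in controls, and Fkbp1b and Hspb6 were at 24.7 ± 44.5 and 9.83 ± 15.4 CPM in Sox17-deleted hypoxia, against 24.3 ± 23.0 and 9.65 ± 13.4 CPM in controls (SD, n = 4 each).

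Markers of other cell types also varied between the libraries. Fibroblast markers summed to 724 to 8839 CPM in Sox17-deleted hypoxia and 468 to 693 CPM in controls, with the highest sum in library 4, where Gsn had 91602 counts. Much of this sum was Gsn alone, at 8208 of the 8839 CPM in library 4 and 657 of the 724 CPM in library 3. In controls Gsn was at 243 to 481 CPM. Of the 7 fibroblast genes tested by edgeR, 4 were higher and 3 lower by sign. Alveolar type 2 markers, with Sftpc the most abundant, summed to 1990 to 4199 CPM in Sox17-deleted hypoxia and 934 to 1287 CPM in controls. Club and ciliated markers, led by Scgb1a1, summed to 2634 to 5687 CPM in Sox17-deleted hypoxia and 1293 to 2369 CPM in controls, so neither epithelial sum overlapped between the groups. Smooth muscle markers, led by Mylk, summed to 550 to 1011 CPM in Sox17-deleted hypoxia and 424 to 608 CPM in controls. Endothelial markers summed to 9215 to 15068 CPM in Sox17-deleted hypoxia, lowest in library 4, against 13241 to 14819 CPM in controls. Skeletal muscle markers summed to 0.717 to 43.3 CPM in Sox17-deleted hypoxia and 0.181 to 79.0 CPM in controls, with 12 of 17 at 0 in all libraries. Macrophage markers summed to 47.0 to 192 CPM in Sox17-deleted hypoxia and 28.3 to 55.8 CPM in controls, and erythroid markers to 222 to 3432 CPM in Sox17-deleted hypoxia and 1552 to 2668 CPM in controls. Of the 4 mesothelial markers, Msln was counted 211 times, all in library 3 of Sox17-deleted hypoxia, and the other 3 were at 0 throughout. The part of these cell types, or of heart muscle cells, in the counts of Myh6 and Myh7 was not tested.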

How the data were processed

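Ribosome-associated RNA of lung was sequenced from 3′ ends with a QuantSeq kit, per the labels' protocols. Each library has a deposited table of raw counts, whole numbers by gene symbol. Bowtie2, bedtools and mm10 are named in the submitters' processing notes, with no versions or settings. The 44 repeated symbols were summed. CPM were scaled to the library total and not divided by length, as 3′ tags do not tile a transcript. The 10 genes and the other gene lists were chosen with earlier results of these data known. EdgeR 4.0.16 in R 4.3.3 used TMM factors, filterByExpr, a group-only model and the quasi-likelihood F test, with Benjamini-Hochberg adjustment over 8282 genes and a threshold of 0.05, and was tested on simulated data. Standard errors are the log2 fold change over the square root of F. DESeq2 1.42.0 was an alternative. Other alternatives were RLE factors, no filter, the replicate number as a block, other scalings, and leaving out each library. No 2 libraries agreed within sampling noise (lowest chi-square per degree of freedom 168).

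Genes named besides the 10 are Sox17, listed relatives and other cardiac genes reaching a group mean of 8 CPM, the most abundant gene of each other cell type, and the 5 genes with the highest Pearson correlation with Myh6, leaving out predicted and sex-linked genes. A gene that met this rule is not reported here. Mhrt, Dnaaf3 and the defining markers below that level were added after their values were seen. Windows of 50 bases and coding sequences came from the transcript with the longest coding sequence in GENCODE M21. No protein table was used here, so identity was computed on coding bases.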

Additional observations from a re-analysis of the deposited data

Results flagged for a closer look

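In 31 of 108 groups of 4 values examined, over 57 named genes, 1 library lay so far from the other 3 that its gap, as a share of the range of the group, passed Dixon's 95% critical value. Of these, 18 were in Sox17-deleted hypoxia and 13 in controls. Chance flags about 1 in 20 such groups under a normal distribution, which counts that are mostly 0 do not follow.

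Among the 10 cardiac genes the distant libraries were as follows. In Sox17-deleted hypoxia they were library 1 for Actc1 (23.5 CPM), library 2 for Myl7 (2.43 CPM), library 3 for Tnni3 (43.1 CPM) and Ryr2 (0.143 CPM, 1 count), and library 4 for Tnnt2 (22.8 CPM). In controls they were library 2 for Tnnt2 (1.81 CPM), library 3 for Myh7 (36.1 CPM) and library 4 for Myl7 (3.79 CPM). Myh6 had no such library in either group.

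Among other cardiac genes in Sox17-deleted hypoxia, library 1 stood apart for Myh7b (73.7 CPM), Tnni1 (71.9 CPM) and Fkbp1b (91.2 CPM), library 3 for Myom1 (51.0 CPM), and library 4 for Ttn (60.4 CPM), Des (62.5 CPM), Slc8a1 (32.2 CPM) and Cacna1c (0.0896 CPM, 1 count). In controls, library 2 stood apart for Tpm1 (498 CPM) and Ankrd1 (39.7 CPM), library 3 for Myom1 (0.344 CPM), Des (6.79 CPM) and, on the low side, Atp2a2 (45.5 CPM), and library 4 for Ttn (6.90 CPM) and Tnni1 (0.0841 CPM, 1 count).

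For relatives and markers in Sox17-deleted hypoxia, the values were 42.7 CPM of Myh4 and 36.6 CPM of Sox17 in library 1, 0.143 CPM of Mylpf and 30.1 CPM of Msln in library 3, and 8208 CPM of Gsn in library 4. In controls they were 1613 CPM of Myl6 in library 2, 43.3 CPM of Myh4 in library 3 and 68.1 CPM of Myh11 in library 4.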

How the results depend on the processing

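As differences in mean log2(CPM + 1), Sox17-deleted hypoxia minus control, Myh6 stood at 3.59, the sum of the 10 genes at 2.20 and the sum of the 8 genes other than Myh6 and Myh7 at −0.12. Over the 12 alternatives each moved by less than the SD between libraries. With a library left out they ran from 2.63 to 5.38, from 1.76 to 2.82 and from −0.47 to 0.76, with the lowest and highest Myh6 values without Sox17-deleted hypoxic libraries 4 and 1. The sum of the 8 genes changed sign without Sox17-deleted hypoxic library 2 (0.76) or control library 2 (0.10) and, at 0.01, when scaled to the endothelial list. Myl4, Myl7 and Tnnt2 also changed sign with some libraries left out, with ranges from −0.95 to 0.62, from −0.56 to 0.45 and from −0.37 to 1.15. Over all genes edgeR called 0 as reported (424 at an unadjusted p under 0.05), 17 without a low-count filter (10 higher, 7 lower), and from 0 to 5 with a library left out, the 5 without Sox17-deleted hypoxic library 1. DESeq2 called 473 (123 higher, 350 lower). Of the 75 other cardiac genes, 0 were called as reported and by each edgeR alternative, and 2 by DESeq2. With the replicate number as a block edgeR called 0 of 8282 genes (428 at an unadjusted p under 0.05). Deviations of same-numbered libraries from their group means correlated between −0.03 and 0.02, so the numbers did not pair the libraries. Of the 5 genes most like Myh6, 2 were among the first 5 by Spearman's rho and 3 with a pseudocount of 0.25 CPM. Depth limits what can be seen of Sln to levels above 0.232 to 0.429 CPM in a library. This covers counting error alone, and genes of higher mean levels were often at 3 counts or fewer in a library.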
